A study of Mus musculus with 12 samples.

Results

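The 38 genes described here encode proteins of the synaptic vesicle and of the machinery that releases its contents. They were taken by gene symbol from a list of release genes, chosen with earlier results of these data known although the rule itself names no measured value, and all 38 of 38 were found among the 46078 gene IDs measured. The genes fall into 4 roles: 19 encode proteins on or attached to the vesicle, 9 encode SNARE proteins and the factors that handle them, 8 encode proteins of the active zone, and 2 encode proteins that retrieve vesicle membrane.

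The 12 RNA libraries came from hippocampus of C57BL/6 mice, all at postnatal day 25. The 4 groups of 3 libraries each were males heterozygous for the CHD8 mutation Asn2373LysfsX2, wild-type males, females heterozygous for the same mutation, and wild-type females. Chd8 encodes a chromatin remodelling enzyme, and the mutation is a frameshift. The labels do not state whether the libraries of a group were made from separate animals, so the p-values below measure the spread between libraries, part of which may be technical.

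At a nerve terminal, transporters fill vesicles with transmitter, and active zone proteins dock the vesicles and make them ready for fusion. Calcium entry, sensed by synaptotagmins, then lets SNARE proteins on the vesicle and on the plasma membrane pull the membranes together. Dynamin and its partners recover the membrane afterwards. In the hippocampus most of this machinery serves glutamate release from pyramidal and granule cells, and a smaller part serves inhibitory neurons.

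The values are normalized counts, which are reads divided by 1 size factor per library. Libraries held 23721482 to 24654408 reads in the mutants and 26912998 to 33327314 reads in the wild type, so depth and genotype cannot be told apart. Over all libraries a member had 165 reads at the least, for Slc17a6, and 56476 at the most. Chd8 itself was lower in mutants, with 2423, 2383 and 2508 normalized counts in mutant males against 2751, 2994 and 2855 in wild-type males, and with 2477, 2426 and 2513 in mutant females against 2893, 2845 and 2872 in wild-type females. Its log2 fold change averaged over the sexes was -0.22 ± 0.03 (standard error), with an adjusted p of 0.0289 in limma. Markers of hippocampal cells were present in every library: the 12 genes of that list summed to 48645 to 53896 normalized counts in mutant males, 47629 to 51122 in wild-type males, 49171 to 51789 in mutant females and 46843 to 53759.8 in wild-type females, and 0 of them were at 0 in any library. Markers of choroid plexus, a secretory tissue beside the hippocampus, set 3 libraries apart. Their 12 genes summed to 6474 in mutant male 2, 7309.7 in mutant male 3 and 7150.3 in wild-type female 1. In the other 9 libraries the sum lay between 77698 and 259958. Results that rest on these 3 libraries are given below with and without them.

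Within each library the 38 genes spanned a wide range of levels. On the RPKM scale, which divides reads by exon length and library size, 32 of the 38 lay above 4.17, the median of the 17416 tested genes with a known exon length. Complexin 2, encoded by Cplx2, which clamps and then assists SNARE proteins, had the highest median at 284, with a range of 260.2 to 302 over the 12 libraries. Snap25, the SNARE of the plasma membrane, had 251 with a range of 237 to 264. Slc17a7, the vesicular glutamate transporter of most hippocampal excitatory neurons, had 247 with a range of 228 to 257. The ranges of Snap25 and Slc17a7 overlapped, and their order was not the same in all libraries. In mutant female 1 Snap25 had 242.5 and Slc17a7 had 248.9. The range of Snap25 also overlapped that of Cplx2, but within every library Cplx2 was the higher of the pair. The ranges of Slc17a7 and Cplx2 were separate. Dnm1, the neuronal dynamin that pinches vesicles from the membrane, followed with 231 and a range of 216 to 242.

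**Figure D1:**
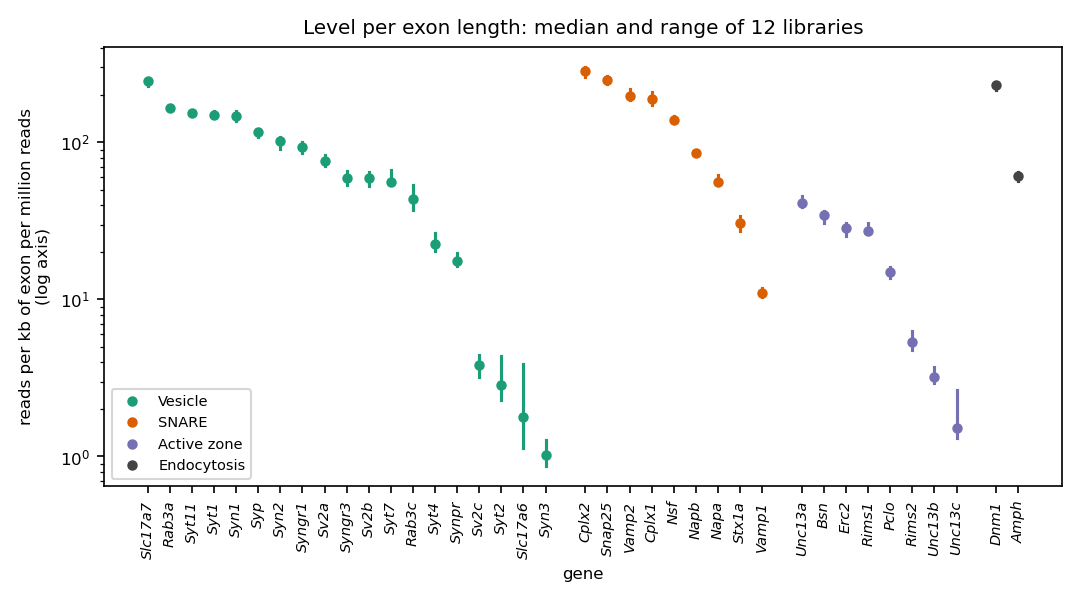
Level of each gene as RPKM, reads per kilobase of exon scaled to library size, on a log axis, with genes grouped by role along the x axis. Dots are the median and lines the lowest and highest of 12 libraries; the vesicle, SNARE and endocytosis groups reach above 200, and the highest active zone gene, Unc13a, lies at 41.3.

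Active zone genes lay lower as a group. Their highest member was Unc13a, the main vesicle priming factor of excitatory synapses, at 41.3, and their lowest was Unc13c, a priming factor best known from the cerebellum, at 1.52. Bsn, which encodes the large scaffold bassoon, had 34.6, and Pclo, which encodes the related scaffold piccolo, had 15.0. Syn3, the third synapsin gene, had the lowest level of all members at 1.03, against 147 for Syn1. Exons of Syn3 share 14.1% of their length with Timp3, and the library kit did not keep strand, so reads there cannot be assigned to 1 gene.

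Related genes differed in level, and the same form led in every library. The shares that follow are ratios of levels per exon length, lowest to highest over the 12 libraries. Slc17a6, the transporter of thalamic and other subcortical neurons, was 0.456% to 1.62% of Slc17a7. Syt2, the fast calcium sensor of brainstem and of some inhibitory neurons, was 1.49% to 2.76% of Syt1, the sensor of most forebrain neurons. Vamp1, the vesicle SNARE common in spinal cord and brainstem, was 5.20% to 5.88% of Vamp2, its main forebrain counterpart. The annotated exon length, 10167 bases for Vamp1 and 3809 for Vamp2, makes this share lower than that of reads. In mutant male 1 the reads were 2649 and 17855. In these 3 pairs, the form described as that of most hippocampal or forebrain neurons lay far above its partner. Unc13c was 2.89% to 6.42% of Unc13a. Cplx1 was 60.9% to 74.6% of Cplx2, and Sv2b was 68.0% to 84.9% of Sv2a, so in the last 2 pairs both genes were abundant.

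The members differed in how much they varied over the 12 libraries. Rab3a, the GTPase that tethers vesicles, had a coefficient of variation of 2.70%, and Snap25 had 2.74%. The largest was 41.2% for Slc17a6, followed by Unc13c and then, at 18.8%, Syt2, all genes of low level. Each of these 3 had its highest normalized count in wild-type female 1.

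In males, the release genes lay higher in mutants than in wild type by a small and widely shared margin, but none passed the test. A log2 fold change above 0 was found for 34 of the 38, against 50.6% of the 17496 tested genes, and the median was 0.08 against 0.0017 for all tested genes. The count of members called at an adjusted p under 0.05 was 0, with a background of 0% in limma. An unadjusted p under 0.05 was found for 13 members, 34.2% of them, all higher in mutants, against a background of 10.3% in either direction and 4.1% for higher genes. In 14 members, 36.8%, every mutant male library lay above every wild-type male library, against 16% of all tested genes whose libraries did not overlap in either direction and 8.37% of them higher. These 14 were 8 of 19 vesicle genes, 4 of 9 SNARE genes, 0 of 8 active zone genes and both endocytosis genes. In bulk tissue, more release gene RNA per cell and more cells that carry it cannot be told apart.

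**Figure D2:**
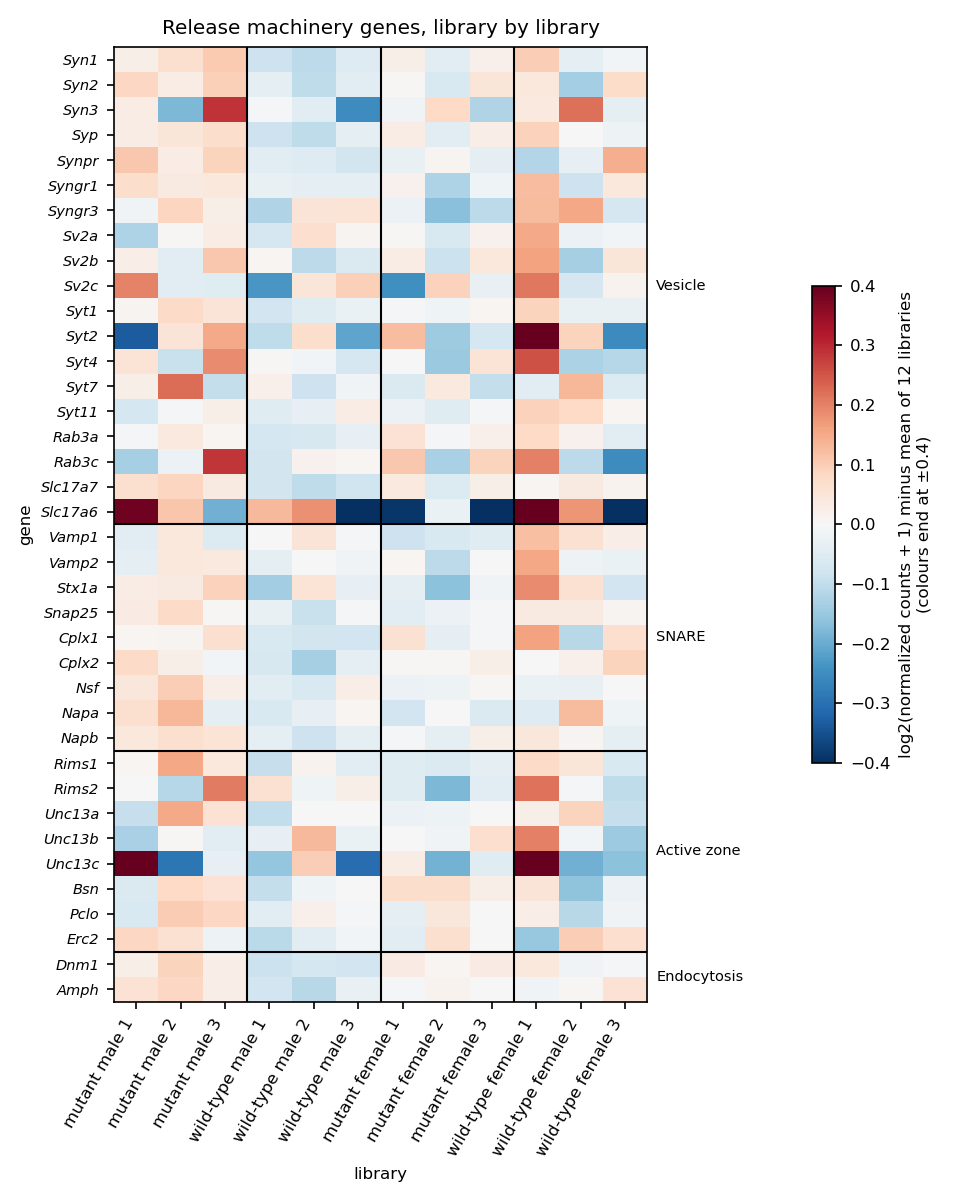
Normalized counts of the 38 genes in each library, as log2(normalized counts + 1) minus the gene's mean over 12 libraries, with colours ending at ±0.4. Libraries run along the x axis by group and genes down the y axis by role; mutant male 2 holds the highest value of 12 genes and wild-type female 1 that of 18.

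The vesicular glutamate transporter gave the smallest p among members in males. Slc17a7 had 36859.9, 37362 and 36155 normalized counts in mutant males, against 33498, 32830.4 and 33315 in wild-type males. The groups did not overlap, and the log2 fold change was 0.15 ± 0.03, with a 95% interval of 0.07 to 0.22, an unadjusted p of 0.00105 and an adjusted p of 0.407 in limma. Over the other ways of processing tried, that adjusted p ran over 0.00191 to 0.713. In females Slc17a7 had 36207, 33958 and 35848 in mutants against 35420.2, 36134 and 35619 in wild type, and these libraries overlapped.

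Synapsins coat the vesicle surface and hold vesicles in the reserve pool. Syn1 had 13187, 13566 and 13971 in mutant males, against 12247, 12064 and 12521 in wild-type males. The log2 fold change was 0.14 ± 0.04, with an adjusted p of 0.407, and the groups did not overlap. Its libraries overlapped in females, at 13203, 12618 and 13165 in mutants against 13888, 12623 and 12869.7 in wild type. For Syn2 the values were 20141, 19410 and 20300.3 in mutant males, against 18489.5, 17735 and 18477 in wild-type males. Every mutant library was again the higher, with a log2 fold change of 0.13 ± 0.05. Female libraries had 19083, 18229 and 19672 of Syn2 in mutants against 19589.8, 17309.9 and 20024 in wild type, and overlapped. Syn3, with 348, 301 and 417 in mutant males against 339, 330.1 and 286 in wild-type males, overlapped between the groups. In females Syn3 had 337, 360.4 and 313 in mutants against 350.4, 398 and 332 in wild type, and these overlapped as well.

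Synaptophysin and its relatives span the vesicle membrane. Syp, the most used marker of the presynapse, had 16548, 16773 and 17048 in mutant males, against 15321, 15129 and 15793 in wild-type males. These did not overlap, with a log2 fold change of 0.12 ± 0.04 and an adjusted p of 0.410. Exons of Syp share 16.8% of their length with Gm14703. Female values of Syp overlapped, at 16568, 15709 and 16516 in mutants against 17284, 16202 and 15984 in wild type. Synpr, which encodes synaptoporin, a form enriched in mossy fibre terminals, had 4898, 4639 and 4839.8 in mutant males, against 4404, 4389 and 4327 in wild-type males. The lowest mutant value was above the highest wild-type value, and the log2 fold change was 0.13 ± 0.05. In females Synpr had 4459.7, 4587 and 4439 in mutants against 4195, 4446 and 5033 in wild type, with overlap.

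Synaptogyrins belong to the same membrane family. Syngr1 had 12627, 12351 and 12406 in mutant males, against 11790.1, 11714 and 11721 in wild-type males, with no overlap and a log2 fold change of 0.09 ± 0.05. Its female libraries overlapped, at 12169, 11053 and 11905 in mutants against 13101, 11369 and 12389 in wild type. Syngr3 showed a wider spread. It had 3264, 3502 and 3349 in mutant males, against 3031, 3420.5 and 3422 in wild-type males, which overlapped. Mutant females had 3248, 2939 and 3070.4 of it against 3601, 3675 and 3149 in wild-type females, a log2 fold change of -0.17 ± 0.07 with an unadjusted p of 0.0235 and an adjusted p of 0.627. Wild-type female 3 lay within the range of the mutants, so the groups overlapped.

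The Sv2 genes encode glycoproteins of the vesicle membrane, and Sv2a is the binding site of the drug levetiracetam. Sv2a had 8737, 9545 and 9718 in mutant males, against 9071, 9966 and 9577 in wild-type males. Female libraries had 9539, 9118 and 9633 of Sv2a in mutants against 10577, 9353 and 9451 in wild type. Sv2a overlapped between the genotypes in both sexes, and its male log2 fold change, -0.03 ± 0.06, was 1 of the 4 below 0. Sv2b had 13413, 12774 and 14195 in mutant males, against 13229.7, 12245 and 12658 in wild-type males. Mutant females had 13425, 12397 and 13560.1 of Sv2b against 14722, 12015 and 13601 in wild-type females. Those of Sv2b overlapped in both sexes too.

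Synaptotagmins sense calcium. Syt1 had 34084, 35634 and 35047 in mutant males, against 32081, 32669 and 33168 in wild-type males, with no overlap and a log2 fold change of 0.10 ± 0.04. Female libraries of Syt1 overlapped, at 33672, 33397 and 33972 in mutants against 35942, 33151 and 33113 in wild type. Syt2 was far lower and varied more. It had 466, 609 and 653 in mutant males, against 548, 617 and 508 in wild-type males, which overlapped. Mutant females had 639.8, 533 and 560 of it against 909, 625 and 492 in wild-type females, where wild-type female 1 stood above all other libraries. Syt11, a form that does not bind calcium, had 20509, 21409 and 21906 in mutant males, against 20832, 21043 and 22008 in wild-type males, with a fold change close to none. Its female values were 21189, 20839.7 and 21481 in mutants against 22963, 22762 and 21656 in wild type. Each mutant female lay below each wild-type female, and the log2 fold change was -0.08 ± 0.04 with an unadjusted p of 0.0438 and an adjusted p of 0.698.

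Rab3 proteins tether vesicles to the active zone, and Slc17a6 loads glutamate. Rab3a had 9838, 10144 and 9936 in mutant males, against 9410.4, 9442 and 9661 in wild-type males. The groups were separate, though by less than for Slc17a7, with a log2 fold change of 0.07 ± 0.04. Female values of Rab3a were 10288, 9834 and 10010 in mutants against 10437, 10006 and 9600 in wild type, with overlap. Slc17a6 had 326, 269 and 217 in mutant males, against 272, 283 and 168 in wild-type males. It had 189.6, 244 and 187 in mutant females against 575, 281 and 163 in wild-type females. Wild-type female 1 was the high library and the other 11 ran together. The female log2 fold change of -0.53 ± 0.36 had a 95% interval of -1.31 to 0.25, which includes 0.

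Wild-type female 1 also stood apart in markers of neocortex, the tissue that covers the hippocampus. The 10 neocortex genes summed to 6821 there, against 4676 to 5589.8 in the other 11 libraries, with 0 of 10 at 0 in any library. The 12 thalamus and habenula genes, which mark regions that use Slc17a6, summed to 3385 there, inside the 3304 to 4664 of the other libraries, and Gbx2 was at 0 in at least 1 library. Single genes of that list did not all follow the sum. In reads, wild-type female 1 was the highest of the 12 libraries for Tcf7l2, at 213, and the lowest for Prkcd, at 805, and Zic1, at 332. The part of either tissue in the values of Slc17a6, Syt2 and Unc13c was not tested.

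Among SNARE genes, Snap25 was the only member of the 38 whose genotypes were separate in both sexes, and in opposite directions. Of all tested genes, 16% were separate in males and 10.8% in females. The share separate in opposite directions was not counted. It had 46746, 48213 and 45847 in mutant males, against 44732, 42977 and 45576 in wild-type males, a log2 fold change of 0.08 ± 0.04. It had 44439, 44953 and 45503 in mutant females, against 46867, 46828 and 46054 in wild-type females, a log2 fold change of -0.05 ± 0.04. The adjusted p was 0.477 in males and 0.838 in females.

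The vesicle SNAREs behaved differently. Vamp2 overlapped between the genotypes in both sexes. It had 19735, 20885 and 20861 in mutant males, against 19748, 20255 and 20099 in wild-type males, and 20421, 18855 and 20329 in mutant females, against 22597, 20011 and 19926 in wild-type females. Vamp1 had the smallest p of all members in females. It had 2842, 2889 and 2909.8 in mutant females, against 3272, 3139.6 and 3066 in wild-type females. The groups did not overlap, and the log2 fold change was -0.13 ± 0.04 with a 95% interval of -0.21 to -0.05, an unadjusted p of 0.00373 and an adjusted p of 0.584 in limma. In males Vamp1 had 2928, 3099.6 and 2898 in mutants against 3013, 3123 and 2995 in wild type, with overlap and a log2 fold change of -0.03 ± 0.04.

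Complexins bind the assembled SNARE bundle. Cplx1 had 11198, 11225 and 11630.2 in mutant males, against 10666, 10568 and 10549 in wild-type males, with no overlap and a log2 fold change of 0.10 ± 0.06. In females Cplx1 had 11611, 10838 and 11066 in mutants against 12448, 10299 and 11657 in wild type, and overlapped. Cplx2 had 39582, 38104 and 37239.7 in mutant males, against 35863, 34242 and 36593 in wild-type males. The lowest mutant male stood just above the highest wild-type male, and the log2 fold change was 0.11 ± 0.04. Its female values overlapped, at 37646, 37668 and 38144 in mutants against 37570, 38094 and 39917 in wild type. Napb, a neuronal SNAP protein that helps take SNARE bundles apart after fusion, had 16818, 17086 and 16979 in mutant males, against 15926, 15413 and 15927 in wild-type males. These were separate, with a log2 fold change of 0.11 ± 0.03 and an adjusted p of 0.410. Female values of Napb overlapped, at 16235, 15908 and 16606 in mutants against 16838, 16462 and 15896 in wild type.

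No active zone gene had separate genotypes in either sex. Rims1, which links vesicles to calcium channels, had the smallest p of this role in males. It had 5511, 6094 and 5635 in mutant males, against 5135, 5538 and 5321 in wild-type males, a log2 fold change of 0.11 ± 0.05 with an adjusted p of 0.470. In females it had 5298, 5263 and 5339 in mutants against 5776, 5661 and 5246 in wild type. Unc13a had 13159, 15594 and 14601 in mutant males, against 13090.3, 14016 and 14036 in wild-type males. Female values were 13815, 13830.2 and 14044 in mutants against 14257, 14916 and 13168 in wild type. The mutant and wild-type values of Unc13a were mixed in both sexes.

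Unc13c had 549, 314 and 375 in mutant males, against 345, 411 and 311 in wild-type males. In females it had 392, 336 and 371 in mutants against 638, 336 and 343 in wild type. Mutant male 1 and wild-type female 1 were the high libraries, so the spread lay within groups. Bsn had 14147, 15566 and 15354 in mutant males, against 13805, 14568 and 14741 in wild-type males. Female values of Bsn were 15460.1, 15455 and 14969 in mutants against 15277, 13194 and 14505 in wild type. It was the active zone gene with the smallest p in females, and its log2 fold change of 0.10 ± 0.05 there was the highest of the 38, with an adjusted p of 0.784.

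Both endocytosis genes were separate in males. Dnm1 had 32671, 34191 and 32764 in mutant males, against 30334, 30669.6 and 30512 in wild-type males, with a log2 fold change of 0.12 ± 0.03 and an adjusted p of 0.407. In females it had 32902, 32356 and 32916 in mutants against 33147, 31892 and 31983 in wild type, and overlapped. Amph, which encodes amphiphysin, a protein that brings dynamin to the neck of the budding vesicle, had 7748, 7891 and 7591 in mutant males, against 7070.1, 6897 and 7297 in wild-type males. Its log2 fold change was 0.13 ± 0.03 with an adjusted p of 0.407. In females it had 7401, 7516 and 7433 in mutants against 7368, 7472 and 7752 in wild type, with overlap.

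**Figure D3:**
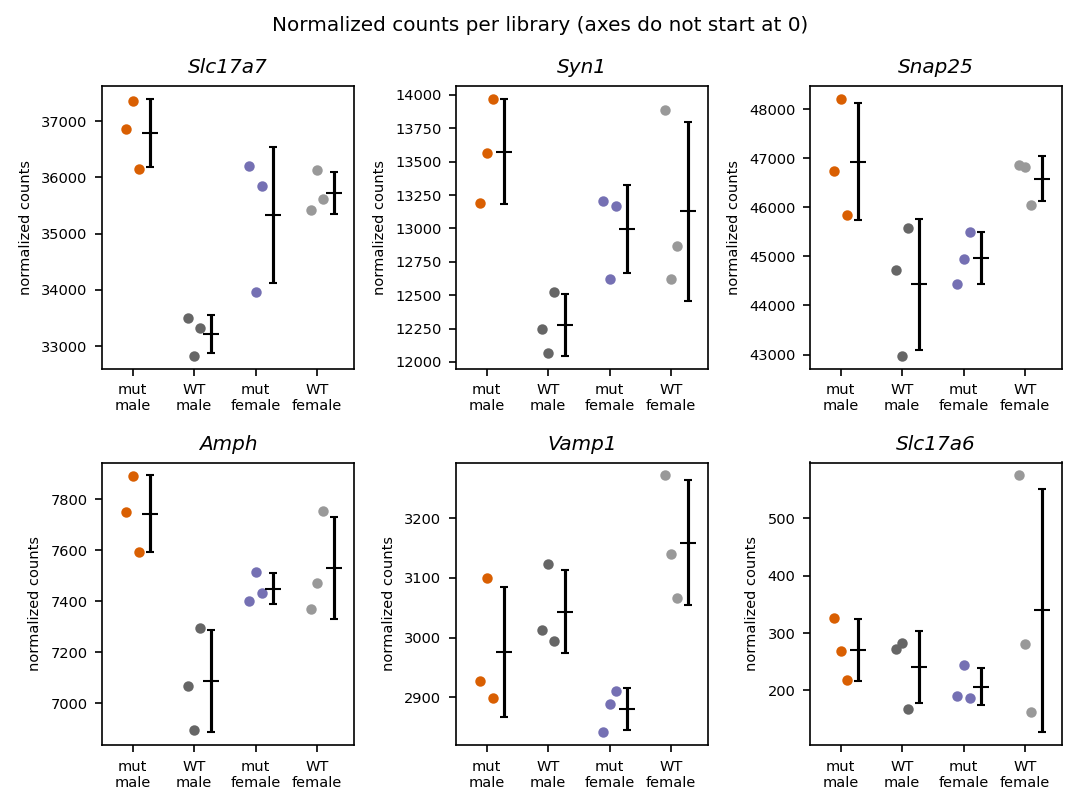
Normalized counts per library of Slc17a7, Syn1, Snap25, Amph, Vamp1 and Slc17a6 in the 4 groups, with a bar for the mean and SD of 3 libraries; the y axes do not start at 0. Mutant males lie above wild-type males for Slc17a7, Syn1, Snap25 and Amph, mutant females lie below wild-type females for Snap25 and Vamp1, and wild-type female 1 stands alone for Slc17a6.

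The other 11 members were Sv2c, Syt4, Syt7, Rab3c, Stx1a, Nsf, Napa, Rims2, Unc13b, Pclo and Erc2. Their male log2 fold changes ran between -0.08, for the priming factor gene Unc13b, and 0.10, for the active zone scaffold gene Erc2. In females they ran between -0.13, for Stx1a, the syntaxin of the plasma membrane, and 0.07, for the vesicle GTPase gene Rab3c. Nsf, the ATPase that takes SNARE bundles apart, had the smallest male p of these 11, 0.0382, with a log2 fold change of 0.08 ± 0.03. Stx1a had the smallest female p of them, 0.0788, with a log2 fold change of -0.13 ± 0.07 and an adjusted p of 0.773. Mutant and wild-type libraries of all 11 overlapped in each sex.

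Slc17a7, Dnm1 and Amph were the 3 members that another tool called in males. DESeq2, run on the recovered reads, gave adjusted p-values of 0.00191, 0.00616 and 0.0471, among 35 genes it called in all. The quasi-likelihood test of edgeR on the same reads called 0 members and gave 10 an unadjusted p under 0.05. For unadjusted p-values, the share of all tested genes was counted in the main limma fit alone. Counts of members under any other setting, here and below, therefore have no background beside them. Leaving out 1 library lowered the 13 members with an unadjusted p under 0.05 in limma to 7 without wild-type male 2 and to 8 without wild-type male 1.

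In males the choroid plexus markers were lower in mutants for 12 of 12 genes. Their summed level was 6474 to 234986 in mutant males and 209401 to 259958 in wild-type males, with 0 of 12 at 0. Of the 38 members, 34 had their highest normalized count in 1 of the 3 libraries poor in choroid plexus: 12 in mutant male 2, 4 in mutant male 3 and 18 in wild-type female 1. The same count was not made over all tested genes, so the 34 cannot be read as particular to release genes. For mutant male 1, the choroid plexus sum was within the range of wild-type males. Its sum of 12 oligodendrocyte markers, 320329, was the lowest of the 12 libraries, against 406593 to 445232 in wild-type males. The part of that in its release gene values was not tested. The median difference of the members in mutant male 1 from the wild-type male mean was 0.08 on the log2 scale. That median was 0.10 in mutant male 2 and 0.09 in mutant male 3. Leaving out the 3 libraries poor in choroid plexus reduces the mutant males to mutant male 1, so the 26 of 38 members above 0 and the median of 0.08 are then that library's values and no second check. In limma 8 members then had an unadjusted p under 0.05, with the lone library assumed to vary like the other groups. With the choroid plexus level as a covariate, 24 were above 0, the median was 0.05, and 10 had an unadjusted p under 0.05.

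Markers of other cells also differed. The 10 general neuron markers, none of them release genes, were higher in mutant males for 9 of 10, with a median log2 fold change of 0.07, and none was at 0. They summed to 231565 to 250944 in mutant males and 220743 to 237534 in wild-type males. The 12 oligodendrocyte markers were lower in mutants for 12 of 12 in each sex, with a median of -0.25 in males and -0.25 in females. They summed to 320329 to 415292 in mutant males, 406593 to 445232 in wild-type males, 385629 to 444512 in mutant females and 453696 to 519889 in wild-type females, with 0 of 12 at 0. The part of these cells in the release gene values was not tested.

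**Figure D4:**
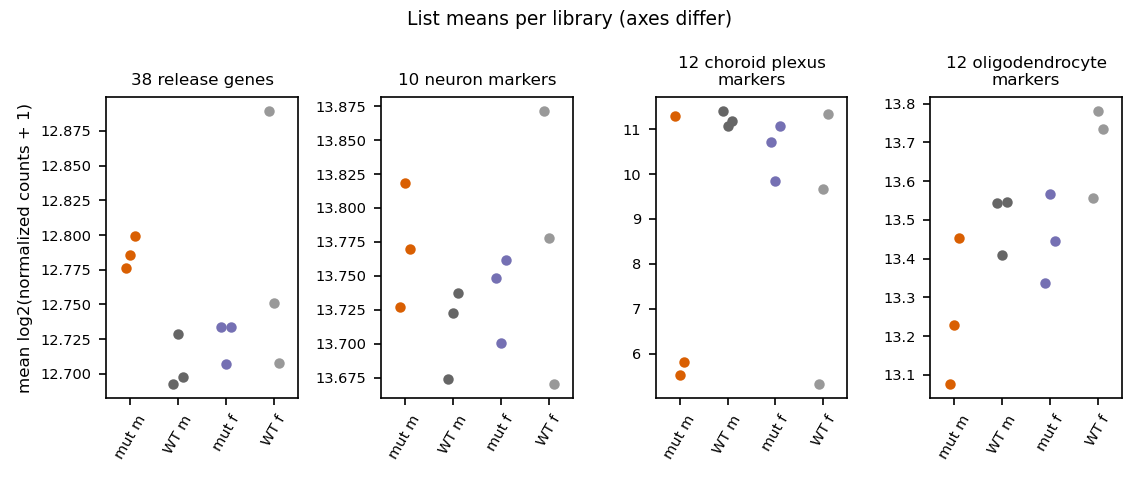
Mean log2(normalized counts + 1) per library of the 38 release genes, 10 general neuron markers, 12 choroid plexus markers and 12 oligodendrocyte markers, in the 4 groups; each point is a library and the y axes differ. The 3 mutant males lie above the 3 wild-type males for the release genes, and mutant male 2, mutant male 3 and wild-type female 1 lie lowest for choroid plexus.

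In females the direction was mostly the other way and smaller. A log2 fold change below 0 was found for 29 of the 38 members, so 9 were above it, against 50.5% of all tested genes, and the median was -0.03 against 0.0011. The count of members called was 0, against a background of 0%. An unadjusted p under 0.05 was found for 3, Vamp1, Syngr3 and Syt11, all lower in mutants, which is 7.89% of members against a background of 6.9% in either direction and 3.07% for lower genes. Separate libraries were found for 3, Vamp1, Syt11 and Snap25, all lower in mutants, again 7.89% against 10.8% of all tested genes in either direction and 5.66% lower. DESeq2 and edgeR also called 0 members in females, with 3 at an unadjusted p under 0.05 in DESeq2 and 2 in edgeR. Without wild-type female 1, which had the highest normalized count of 18 members, 20 of 38 were below 0 and the median was -0.01. With the choroid plexus covariate 13 were above 0 and the median was -0.02. The 3 with an unadjusted p under 0.05 became 7 without wild-type female 3, and 1 without mutant female 2 or without mutant female 3.

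Choroid plexus markers were higher in mutant females for 12 of 12 genes, summing to 85746 to 197012 in mutant females and 7150.3 to 244484 in wild-type females. The 7150.3 was that of wild-type female 1. Of the other wild-type females, wild-type female 2 had 77698, below all mutant females, and wild-type female 3 had 244484, above all of them. Fibroblast markers were higher in mutant females for 7 of 7 genes, summing to 3991 to 10051 in mutant females and 2167 to 3065 in wild-type females, with 0 of 7 at 0. General neuron markers were higher in mutant females for 3 of 10, with a median log2 fold change of -0.04. Their sums were 230571 to 240072 in mutant females and 221119 to 257716 in wild-type females. The part of these cells in the female values was not tested either.

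**Figure D5:**
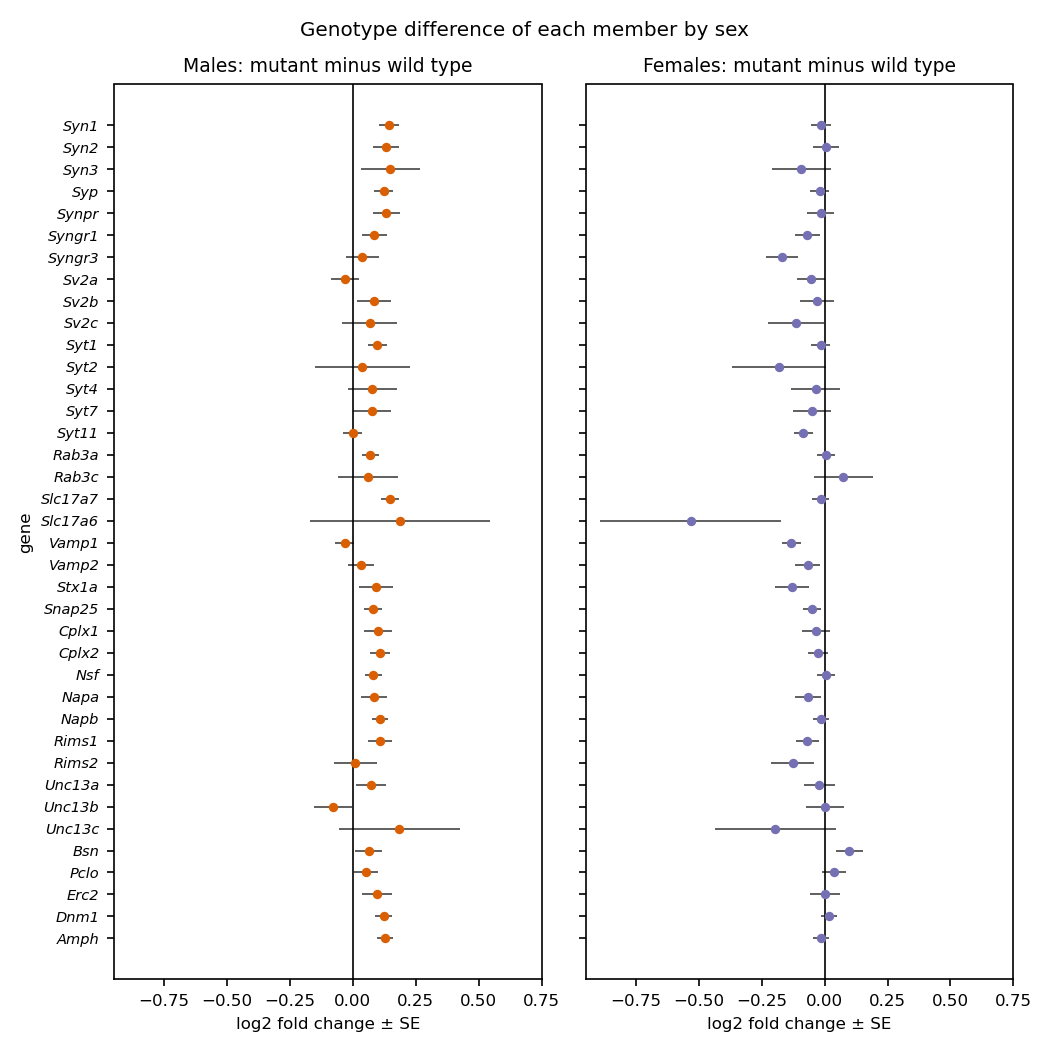
Log2 fold change of each member, mutant minus wild type, with its standard error, in males on the left and females on the right; genes run down the y axis by role. In males 34 of 38 points lie above 0, and in females 29 of 38 lie below 0.

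Averaged over the sexes the release genes lay close to the wild type. The median log2 fold change was 0.03, and 26 of 38 members were above 0, against 49.9% of all tested genes. The count called was 0, against a background of 0.00572%, which is Chd8 alone. Both edgeR and DESeq2 also called 0 members, with 5 at an unadjusted p under 0.05 in edgeR and 7 in DESeq2. An unadjusted p under 0.05 was found for 5 members, 13.2% against a background of 8.87%, with 4 higher, against 4.4%, and 1 lower, against 4.47%. Dnm1 gave 0.07 ± 0.02, Slc17a7 0.07 ± 0.02, Amph 0.06 ± 0.02 and Syn1 0.07 ± 0.03 on the log2 scale, and Vamp1 gave -0.08 ± 0.03. The adjusted p of Vamp1, the smallest of these, was 0.386. Bsn, the active zone gene with the smallest p here, gave 0.08 ± 0.04. With the choroid plexus covariate the median was 0.01, with 25 of 38 above 0 and 8 at an unadjusted p under 0.05. Without the 3 libraries poor in choroid plexus, which leaves 1 mutant male, the median was 0.04, with 27 above 0 and 4 at an unadjusted p under 0.05. In 0 members did all 6 mutant libraries lie on 1 side of all 6 wild-type libraries, against 0.543% of all tested genes. The 5 became 3 without mutant male 2, mutant female 1, mutant female 3, wild-type male 1, wild-type male 2 or wild-type female 2, each left out alone, and 9 without wild-type female 1.

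The difference between the male and the female genotype effect was tested directly. It was above 0 for 35 of 38 members, against 51.6% of all tested genes, with a median of 0.13 on the log2 scale against 0.0051 for all tested genes. The count called was 0, against a background of 0%. An unadjusted p under 0.05 was found for 12 members, 31.6% against 7.85% in either direction and 2.44% above 0, and in all 12 the male effect was the more positive. In edgeR 0 were called and 8 had an unadjusted p under 0.05, and in DESeq2 0 were called and 13 had one. Slc17a7 had the smallest p, with a difference of 0.16 ± 0.05, a 95% interval of 0.06 to 0.27 and an adjusted p of 0.619. Amph had a difference of 0.14 ± 0.05, Syn1 of 0.16 ± 0.06 and Rims1 of 0.18 ± 0.07. By role, 18 of 19 vesicle genes, 9 of 9 SNARE genes, 6 of 8 active zone genes and 2 of 2 endocytosis genes were above 0. General neuron markers were above 0 for 10 of 10, with a median of 0.09. With the choroid plexus covariate 29 of 38 were above 0, with a median of 0.08 and 6 members at an unadjusted p under 0.05. Without the 3 libraries poor in choroid plexus, where the male effect rests on mutant male 1 alone and its spread is assumed to be that of the other groups, 29 of 38 were above 0, with a median of 0.08 and 9 members at an unadjusted p under 0.05. Of the libraries left out singly, mutant female 2 brought the 12 to 5, and mutant male 2, wild-type male 1 and wild-type male 2 each brought them to 7.

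Setting males against females within a genotype uses the same libraries in another arrangement, and so is not independent of the genotype comparisons. Among mutants, 33 of 38 members were higher in males, against 48.4% of all tested genes, with a median log2 difference, male minus female, of 0.06. The count called was 0, against a background of 0.0629%. An unadjusted p under 0.05 was found for 1, Rims1, at 0.12 ± 0.05, which is 2.63% of members against 7.14% in either direction and 3.02% higher in males. The libraries did not overlap for 10 members, all higher in males, 26.3% against 12.7% in either direction and 6.86% higher. Choroid plexus markers were lower in mutant males than in mutant females for 12 of 12 genes. By their sum this held for mutant male 2 and mutant male 3, at 6474 and 7309.7. Mutant male 1, at 234986, lay above the 85746 to 197012 of mutant females. With the choroid plexus covariate 26 of 38 members were higher in mutant males, with a median of 0.05 and 3 at an unadjusted p under 0.05. Mutant male 1 alone, left when the 3 libraries poor in choroid plexus are taken out, gave 27 of 38 with a median of 0.05 and 1 at an unadjusted p under 0.05. The 1 became 0 without mutant female 2 or mutant female 3, 2 without mutant male 1, 3 without mutant male 3 or wild-type female 2, and 4 without wild-type female 3. Among wild types, 34 of 38 were lower in males and 4 higher, against 48.7% of all tested genes higher, with a median of -0.06. The count called was 0, against a background of 0.0457%. An unadjusted p under 0.05 was found for 6, all lower in males, 15.8% against 6.43% in either direction and 3.21% lower, and the libraries of 7 did not overlap, all lower in males, 18.4% against 12.3% in either direction and 6.45% lower. Neither edgeR nor DESeq2 called a member in either sex comparison. In edgeR 1 member among mutants and 5 among wild types had an unadjusted p under 0.05, and in DESeq2 3 and 9. Without wild-type female 1 the wild-type median was -0.03, with 11 of 38 above 0, and with the choroid plexus covariate it was -0.05, with 9 above 0 and 4 at an unadjusted p under 0.05. Leaving out wild-type male 2 brought the 6 to 2, wild-type male 1 to 3, wild-type female 2 to 10 and wild-type female 3 to 12.

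The order of the 4 group means shows the same arrangement gene by gene. Mutant males had the highest mean for 21 members, mutant females for 2, wild-type males for 1 and wild-type females for 14. The lowest mean was that of mutant males for 2 members, of mutant females for 13, of wild-type males for 20 and of wild-type females for 3. These orders were not counted over all tested genes.

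Further genes of the same pathway, 88 in all, were read for context, and 85 of them were tested. Slc18a3, Vamp7 and Cplx4 had a mean under 10 normalized counts, and Vamp7 was listed at 0 in every library. In no genotype or sex comparison did any of the 85 pass an adjusted p under 0.05 in limma or edgeR, and DESeq2 called 1, Cadps in males, with an adjusted p of 0.0197. In males 57 of 85 were above 0, with a median log2 fold change of 0.03, and 16 had an unadjusted p under 0.05, 14 higher and 2 lower in mutants, which is 18.8% against the 10.3% of all genes. The 2 lower were Sypl, which encodes a synaptophysin relative found in many tissues, and Snap23, the SNARE that serves in place of Snap25 outside neurons. In females 36 of 85 were above 0, with a median of -0.0086 and 4 at an unadjusted p under 0.05, which is 4.71% against 6.9%.

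Cadps, a priming factor best known for dense-core vesicles, had the smallest p of these genes in males. It had 8627, 8758 and 8799 normalized counts in mutant males, against 7332, 8261 and 7635 in wild-type males. The groups were separate, with a log2 fold change of 0.17 ± 0.04 and an adjusted p of 0.407. In females Cadps had 8099, 8323 and 8259 in mutants against 8131, 8139 and 8389 in wild type, and its difference between the sexes, 0.17 ± 0.06, was the one with the smallest p as well.

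Atp6v0c encodes a subunit of the proton pump that powers transmitter loading. It had 1826, 1913 and 1777 in mutant males, against 1721, 1649.5 and 1622 in wild-type males, and 1912, 1823 and 1911 in mutant females, against 1695, 1732 and 1811 in wild-type females. It was higher in mutants without overlap in each sex, the one gene of the 85 to be so, against 1.13% of all tested genes separate in the same direction in both sexes and 0.532% higher in both. Its log2 fold change averaged over the sexes was 0.13 ± 0.03, with an adjusted p of 0.311.

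The smallest p in females was that of Sh3gl3, an endophilin gene of the membrane retrieval step. It had 1583, 1616 and 1554 in mutant females, against 1676, 1849.8 and 1885 in wild-type females, a log2 fold change of -0.19 ± 0.07 with an adjusted p of 0.627. Of the sex comparisons, Syngr2, a widely expressed synaptogyrin, came first among mutants, with a male minus female log2 difference of -0.30 ± 0.10. Bin1, the relative of Amph, came first among wild types with -0.11 ± 0.04. Their adjusted p-values were 0.667 for Syngr2 and 0.751 for Bin1.

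The promoters of the 3 members that DESeq2 called in males are shown with that of Syn1, the next member by p in limma. They show what precedes the RefSeq starts of the genes with the clearest male values. Each is the 250 bases before the RefSeq transcription start on GRCm38.p6, on the strand of the gene, 5′ to 3′. The windows are chr7:45163671-45163920 on the + strand for Slc17a7, chrX:20920919-20921168 on the - strand for Syn1, chr2:32353330-32353579 on the - strand for Dnm1 and chr13:18948101-18948350 on the + strand for Amph. In GENCODE M21 the genes start at 20921004 for Syn1, 32353338 for Dnm1 and 18948205 for Amph. These starts are inside the windows, so part of each window lies within the gene as annotated there. Capitals mark matches, on either strand, to the GC box GGGCGG, bound by Sp family factors, or to the cyclic AMP response element TGACGTCA.

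Slc17a7: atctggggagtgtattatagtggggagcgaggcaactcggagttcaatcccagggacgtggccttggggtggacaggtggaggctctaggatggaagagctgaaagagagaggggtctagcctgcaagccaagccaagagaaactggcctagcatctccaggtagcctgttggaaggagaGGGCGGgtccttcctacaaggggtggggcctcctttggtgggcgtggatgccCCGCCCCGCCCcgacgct
Syn1: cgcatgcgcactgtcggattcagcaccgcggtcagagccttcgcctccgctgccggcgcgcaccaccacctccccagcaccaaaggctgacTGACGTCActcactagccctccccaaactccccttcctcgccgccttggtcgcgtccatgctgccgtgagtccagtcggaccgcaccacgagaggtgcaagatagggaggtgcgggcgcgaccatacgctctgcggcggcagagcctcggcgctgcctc
Dnm1: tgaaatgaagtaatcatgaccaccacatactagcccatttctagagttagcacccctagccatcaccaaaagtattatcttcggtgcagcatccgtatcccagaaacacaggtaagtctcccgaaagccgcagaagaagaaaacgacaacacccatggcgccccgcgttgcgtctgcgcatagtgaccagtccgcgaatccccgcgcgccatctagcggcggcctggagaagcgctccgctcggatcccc
Amph: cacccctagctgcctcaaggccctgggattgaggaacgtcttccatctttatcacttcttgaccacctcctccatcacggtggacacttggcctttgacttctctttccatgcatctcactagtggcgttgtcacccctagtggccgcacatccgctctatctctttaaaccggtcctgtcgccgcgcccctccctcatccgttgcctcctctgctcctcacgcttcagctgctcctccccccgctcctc

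Slc17a7 held 3 GC boxes, of which 2 overlap by 1 base close to the start. Syn1 held the cyclic AMP element, 159 bases before the RefSeq start, and no GC box, while neither motif was found in the windows of Dnm1 and Amph. RefSeq promoters were matched for 31 of the 38 members. A GC box was present in 22 of 31, 71.0%, against 32.9% of the 27025 promoters in the table. The member promoters were also richer in G and C, with a median of 61.2% against 52% and a median of 15 CpG dinucleotides against 6, and the share with a GC box moves with that composition. TGACGTCA was found in Syn1 alone, 3.23% of members against 1.62% of all. CCAAT was found in 9, 29.0% against 34.5%. These are matches of letters in 1 short window and no measure of binding.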

How the data were processed

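The library kit was TruSeq RNA Sample Prep v2, per the labels' protocols. It keeps no strand, so a gene and an antisense partner cannot be separated. Mouse build GRCm38 is listed in the submitters' processing notes, with the tools DESeq2, HTSeq, TopHat2 2.1.0 and Trimmomatic 0.35 and no roles. For the annotation release the sources used here give nothing. The authors' deposited values, a signal per gene, are reads divided by a size factor of the library, as the values themselves show: 100% were whole multiples of 1 step per library, within 1e-06 reads. The table held 0 columns of other samples. Of 46078 gene IDs, 45229 had a symbol in GENCODE M21 and 849 did not. Exon lengths are the union of all annotated exons there, so levels per length depend on that annotation.

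From these values, log2(value + 1) was fitted with limma 3.58.1 in R 4.3.3, with trend, 1 mean per group and all 12 libraries, for 17496 genes averaging 10 or more, leaving 28582 not tested. A fold change on this scale understates that of low genes. Fold changes are given ± standard error. P-values are two-sided and Benjamini-Hochberg adjusted over all tested genes, with a threshold of 0.05. The design assumed raw counts and named this test for values already divided by size factors. Recovered reads went to edgeR 4.0.16 and DESeq2 1.42.0 as alternatives. Other alternatives were the pseudocount, the filter, the scaling, a replicate block, a choroid plexus covariate, and leaving out 1 library at a time or the 3 libraries poorest in choroid plexus. The fit was also run on simulated counts, with the same spread setting for every gene and no difference in tissue content between libraries. That run therefore cannot show how the fit behaves on these libraries. A chi-square test per degree of freedom between libraries of a group gave 3.38 to 30.0, so no pair was within sampling noise.

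Members, pathway genes and marker lists were chosen with earlier results of these data known. Every library's value was given for members past the threshold, with the smallest p per role and genotype comparison (the 2 smallest among vesicle genes), with genotypes that do not overlap, with the highest or lowest level per length in a role, and for 6 pairs of related genes. Other members are given by ranges. Among pathway genes, the one with the smallest p per comparison is named; Sypl and Snap23 were named after their values were seen. Promoters are from RefSeq.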

Additional observations from a re-analysis of the deposited data

Results flagged for a closer look

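Snap25, the SNARE of the plasma membrane, drew attention because its genotypes were separate in both sexes and in opposite directions. How many of all tested genes were separate in this way was not counted. Its 3 mutant males, at 46746, 48213 and 45847 normalized counts, all lay above the 3 wild-type males, at 44732, 42977 and 45576, while its 3 mutant females, at 44439, 44953 and 45503, all lay below the 3 wild-type females, at 46867, 46828 and 46054. The male minus female genotype effect was 0.13 ± 0.05 on the log2 scale, with an unadjusted p of 0.0246 and an adjusted p of 0.619 in limma, so the tested difference did not pass the threshold.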

How the results depend on the processing

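Counts of called members stayed at 0 in limma and edgeR under every alternative, in all 6 comparisons. DESeq2 called 3 members in males, Slc17a7, Dnm1 and Amph, of 35 genes it called there, beside 11 genes in females and 75 averaged over the sexes, and the cause of this difference between tools was not tested. The male median moved to 0.047 with the choroid plexus covariate. Leaving out 1 library at a time gave medians of 0.083 to 0.092 in males, -0.060 to -0.010 in females and 0.011 to 0.038 averaged over the sexes, and 0 called members. Replicate numbers did not pair the libraries: same-numbered libraries had correlations of -0.58 to 0.29 in their deviations from the group means, and 3 of 12 libraries correlated best with their own number. With the number as a replicate block, 0 members were called and 12 in males, 2 in females and 6 averaged over the sexes had an unadjusted p under 0.05. Of the single-gene values, 1700 kept their direction and side of the threshold and 79 changed direction, none of them called. With the choroid plexus covariate, log2 fold changes crossed 0 to Syngr3 -0.027, Syt2 -0.35, Slc17a6 -0.19, Vamp2 -0.044, Unc13a -0.016 and Bsn -0.017 in males, and Syn1 0.012, Syt1 0.010, Syt2 0.0020 and Unc13a 0.022 in females. Without the 3 libraries poorest in choroid plexus, which leaves mutant male 1 as the only mutant male and 2 wild-type females, they crossed to Syngr3 -0.0098, Syt2 -0.25, Vamp2 -0.022, Unc13a -0.059 and Bsn -0.022 in males, Syn1 0.028, Syp 0.015, Sv2a 0.0039, Sv2b 0.037, Syt1 0.024, Syt2 0.055, Cplx1 0.027, Napb 0.0063 and Unc13c 0.11 in females, and Slc17a6 0.21, Unc13a -0.036 and Unc13c 0.37 averaged over the sexes. With upper-quartile factors, Syt11 crossed to 0.0058 in males. Leaving out 1 library at a time, the values that changed direction ran over Syngr3 -0.022 to 0.066, Sv2a -0.067 to 0.015, Syt2 -0.059 to 0.18, Syt11 -0.023 to 0.025, Slc17a6 -0.053 to 0.33 and Unc13c -0.041 to 0.36 in males, Syn1 -0.041 to 0.028, Syn2 -0.061 to 0.044, Syp -0.042 to 0.015, Synpr -0.074 to 0.058, Sv2a -0.085 to 0.0039, Sv2b -0.11 to 0.037, Syt1 -0.035 to 0.024, Syt2 -0.39 to 0.055, Rab3a -0.025 to 0.035, Slc17a7 -0.034 to 0.012, Cplx1 -0.11 to 0.027, Napb -0.035 to 0.0063, Unc13a -0.070 to 0.020, Unc13c -0.35 to 0.11 and Amph -0.031 to 0.0058 in females, and Syn3 -0.033 to 0.084, Syngr1 -0.019 to 0.033, Sv2b -0.014 to 0.060, Syt2 -0.17 to 0.046, Slc17a6 -0.39 to 0.064, Vamp2 -0.033 to 0.012, Cplx1 -0.0050 to 0.063, Rims1 -0.0018 to 0.034, Unc13a -0.0022 to 0.059 and Unc13c -0.12 to 0.15 averaged over the sexes. Precision is limited by 3 libraries per group. Fold changes of Slc17a6, Syn3, Syt2 and Unc13c rest on few reads.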

Other observations

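The 4 members whose highest normalized count was outside mutant male 2, mutant male 3 and wild-type female 1 peaked in wild-type female 2, for 2 of them, or in wild-type female 3, for the other 2. By normalized counts, no member peaked in mutant male 1, in a mutant female or in a wild-type male. On the RPKM scale, Sv2c and Erc2 peaked in mutant male 1 and Bsn in mutant female 2. The lowest normalized count of a member was in mutant female 2 for 6 members, in wild-type male 2 for 8, in wild-type male 1 for 5 and in wild-type female 2 for 5.

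Among markers outside the release genes, those of inhibitory neurons were higher in mutant males for 7 of 8, with a median log2 fold change of 0.04, and higher in mutant females for 5 of 8, with a median of 0.03. Hippocampal markers were higher in mutant males for 9 of 12 and in mutant females for 6 of 12. Astrocyte markers were higher in mutant males for 9 of 10 and in mutant females for 4 of 10, and microglia markers were higher in mutant males for 7 of 8 and in mutant females for 5 of 8.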
